A study of Homo sapiens with 6 samples.

Results

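The RNAs described are 193 long non-coding RNAs (lncRNAs) that are named as antisense to another gene, with the gene named before "-AS", called the host here. They were measured by sequencing of poly(A) RNA in SAS cells, a human line from a squamous carcinoma of the tongue. One group of 3 libraries came from SAS cells given siRNA against IGF2BP1 (siIGF2BP1), and the other group of 3 came from SAS cells labelled WT and given a control siRNA (siC). The series asks how IGF2BP1, an RNA-binding protein, acts on YAP1, a Hippo pathway effector. Members were chosen by name and by reads: they are lncRNA rows with an antisense name and at least 300 reads summed over all 6 libraries, and KRT7-AS was left out of the set. Of the 62700 genes in the table, 18866 are lncRNAs, 1832 of these carry an antisense name, 1025 of those have at least 1 read, and 193 reach the threshold. The threshold used the same reads as the comparisons below, so the summed reads are a description of the members and nothing more.

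An antisense lncRNA is transcribed from the DNA strand opposite to its host gene. Some start near the host promoter and run away from it, some start beyond the host's far end and run back into it, and some lie inside it. Antisense transcripts are known to affect the host's transcription, splicing or RNA stability in some cases and to have no known effect in many others, and many are short-lived RNAs that nuclear decay removes. IGF2BP1 is known as a cytoplasmic protein that protects bound mRNAs from decay.

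Library totals lay between 17918496 and 25926371 reads after knockdown and between 23775889 and 26675064 reads in controls, so that 3 reads equalled 0.115 to 0.165 CPM, the reads scaled to library size. IGF2BP1 itself had 1.59, 1.09 and 0.806 CPM in the knockdown libraries, against 8.11, 9.60 and 11.2 CPM in the control libraries, a log2 fold change of −3.07 (SE 0.30, edgeR quasi-likelihood adjusted p = 4.56e-06). Every fold change is knockdown over control. The squamous markers, a list that also holds the general epithelial genes CDH1, EPCAM and KRT18, were present in both groups. Of these 10 genes, 5 fell (KRT5, KRT14, KRT6A, CDH1 and KRT18), and KRT17, TP63, EPCAM, SFN and DSP were not called. The 10 genes summed to 7845 to 8879 CPM after knockdown and 15115 to 16752 CPM in controls. KRT18 alone averaged 2600 CPM after knockdown and 6222 CPM in controls. Of the markers of other cell types, 1 of 10 fibroblast genes (PDGFRB) and 1 of 8 endothelial genes (EGFL7) rose, and no leukocyte or melanocyte gene passed the test. The call of PDGFRB (adjusted p = 0.0491) was lost on leaving out any 1 library, without the count filter and with limma-voom, and that of EGFL7 without control library 1, 2 or 3 or knockdown library 2. The summed endothelial level was 291 to 314 CPM after knockdown and 230.3 to 236 CPM in controls, and the fibroblast level 5.72 to 9.29 CPM after knockdown and 6.37 to 8.54 CPM in controls. The markers COL3A1, DCN, LUM, KDR, CLDN5, PTPRC, CD3E, MLANA and TYR were at 0 in all 6 libraries, but others on the same lists were detected. CD14 averaged 13.1 CPM after knockdown and 17.8 CPM in controls, CSF1R 10.6 and 7.48, and VWF 6.52 and 4.45. CDH5 averaged 2.70 CPM after knockdown and 2.18 CPM in controls, and PMEL 4.19 and 4.25. The part of the detected markers in the results was not tested. Abundant structural RNAs varied between libraries: RNA5-8SN3 had 543, 50.7 and 39.1 CPM in knockdown libraries 1 to 3, against 34.0, 42.3 and 21.3 CPM in control libraries 1 to 3. RN7SL1 had 368, 447 and 60.1 CPM in knockdown libraries 1 to 3, against 33.9, 139 and 18.3 CPM in control libraries 1 to 3, so knockdown library 1 stood highest in the one RNA and knockdown library 2 in the other. Nothing in the labels says that a group's libraries are separate cultures, and every p-value here rests on differences among libraries that could be technical only.

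The members were RNAs of low to moderate level. Their summed reads lay between 301 and 10864, with a median of 597, and their mean levels between 2.15 and 78.7 CPM. Per length, members lay between 0.104 and 36.0 CPM per kilobase, with a median of 1.71, and the hosts' median was 4.21 CPM per kilobase. Of the 191 members with a host row in the table, 74 had a higher level per length than their host. HOXA-AS2 and HOXD-AS2 are named for a gene cluster and have no host row. The highest level per length was that of VPS9D1-AS1 (36.0 CPM per kilobase), followed by HSD17B1-AS1 (32.6), PPP1R35-AS1 (24.6), MIF-AS1 (21.2) and PHLDA1-AS1 (20.01). MIF, a cytokine, and PHLDA1, a pleckstrin-homology protein, are the hosts of the last 2 of these. PHLDA1-AS1 shares 97.2% of its exon bases with its host, HSD17B1-AS1 85.2%, MIF-AS1 46.5% and VPS9D1-AS1 29.5%. The strand setting of the counting is not given, so the reads of these pairs cannot be assigned with certainty.

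The 191 members share 189 hosts, since BCAN and KLC2 have 2 members each. Of the hosts, 188 are protein-coding and 1, PRR34, is a lncRNA. Filtering on low counts kept all 193 members and 171 hosts, and 18 hosts were too low to test. Of these, 6 hosts (BBOX1, CALCRL, EPB41L4A, FGD5, IGFL2 and ZSCAN16) had 0 reads in every library, so their antisense RNAs were measured where the host was not detected at this depth.

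The members nearest the threshold show what it separates. RAB35-AS1 entered with 301 reads, having 56, 75 and 52 reads after knockdown and 48, 29 and 41 reads in controls. SBNO1-AS1 entered with 301 reads and UXT-AS1 with 302. Just outside were DLGAP4-AS1 and COL4A2-AS1, each with 299 reads, and KIF1C-AS1 with 295. No member or non-member among these 6 was called. A member with few control reads can reach 300 only through the knockdown libraries. Fewer than 150 control reads were found for 26 members, and 9 of them are among the rises described next. The 9 are BCAN-AS1, SLC25A34-AS1, SLC38A4-AS1, GPC1-AS1, SLCO4A1-AS2, NHSL1-AS1, DDX59-AS1, NAPA-AS1 and ARHGAP29-AS1. Fewer than 150 knockdown reads were found for 9 members, and 1 of them, IQSEC3-AS1, is among the falls. These called members entered mainly through the group in which they were higher. Among the 158 members with at least 150 reads in each group, 18 rose and 2 fell, beside 6.27% and 6.66% over all tested genes.

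After IGF2BP1 knockdown, 27 of the 193 antisense lncRNAs rose (14.0%), 3 fell (1.55%) and 163 were not called, at an edgeR adjusted p under 0.05. Over all 14649 tested genes, 6.27% rose and 6.66% fell. The members' median log2 fold change was 0.27, beside 0.03 over all genes. In 58 members every knockdown library lay above every control library, and in 14 every knockdown library lay below; over all genes this held for 15.5% and 15.1%. Bulk RNA cannot tell fewer cells of a kind from less RNA per cell. The count of rises was 17, 15 and 16 on leaving out control library 1, 2 or 3, and 24, 19 and 18 on leaving out knockdown library 1, 2 or 3. Without knockdown library 1, which was high in RNA5-8SN3 and RN7SL1, 24 members rose and 4 fell, and without knockdown library 2, which was high in RN7SL1, 19 rose and 3 fell.

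The share of members that rose was near that of other lncRNAs of like depth. Among the 578 other lncRNAs with at least 300 reads, 14.9% rose and 5.54% fell, and their median log2 fold change was 0.16. Over all 1967 tested lncRNAs outside the members, 6.91% rose and 2.19% fell, with a median of 0.25. Among the 298 tested antisense lncRNAs below the threshold, 4.03% rose and 0% fell, with a median of 0.32. Divergent transcripts, whose names end in "-DT", included 11.4% that rose and 0% that fell of 184, and genes named LINC included 14.8% that rose and 2.24% that fell of 223. Of the 11788 tested protein-coding genes, 6.27% rose and 7.66% fell, with a median of 0.01. These shares are descriptions, and no difference between classes was tested.

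**Figure D1:**
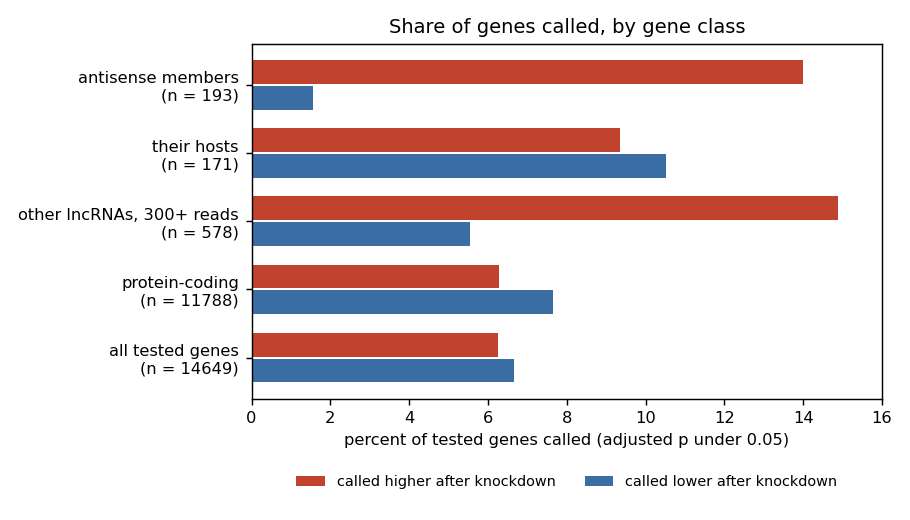
Percent of tested genes called higher (red) or lower (blue) after IGF2BP1 knockdown, by gene class, with the number tested in each class. The antisense members show 14.0% higher and 1.55% lower, their hosts 9.36% and 10.5%, and all tested genes 6.27% and 6.66%.

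The classes also differ in level. Over all genes, split into quintiles by mean CPM, the median log2 fold change was 0.19, 0.13, 0.06, −0.02 and −0.05 in quintiles 1 to 5. The members sat mostly in quintiles 2 and 3. The 82 members in quintile 2 had a median of 0.31 with 8 rises (9.76%) and no fall, where 4.06% of all genes rose and 1.81% fell. Quintile 2 spans 1.21 to 3.73 CPM, and no member lies below 2.15 CPM. The members thus fill only its upper part, and these shares are not matched in level. The 83 members in quintile 3 had a median of 0.28 with 16 rises (19.3%) and 2 falls (2.41%), where 6.79% of all genes rose and 4.10% fell. The 26 members in quintile 4 had a median of 0.03, with 2 rises (7.69%) and 1 fall (3.85%), where 8.87% of all genes rose and 11.2% fell. Summed over the members, the 3 knockdown libraries held 1730.2, 1741 and 1767 CPM, against 1602, 1472 and 1481 CPM in the control libraries, and the groups did not overlap. These sums come from the reads that chose the members. Of the members, 26 had fewer than 150 control reads and 9 had fewer than 150 knockdown reads, so the choice itself favours higher knockdown sums. The sums are thus a description only.

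BCAN-AS1 had the largest fold change of all members. It lies on chromosome 1 from 156637783 to 156641004 on the minus strand (GENCODE 29, GRCh38), and its start is 386 bases upstream of that of BCAN, which encodes brevican, a chondroitin sulfate proteoglycan of the extracellular matrix of the brain. BCAN-AS1 had 8.63, 10.4 and 8.29 CPM in knockdown libraries, from 157, 237 and 216 reads, against 0.701, 1.34 and 0.883 CPM in control libraries, from 16, 31 and 23 reads. All knockdown libraries lay far above all controls. Its log2 fold change was 3.22 (SE 0.30, 95% interval 2.57 to 3.86, edgeR adjusted p = 3.05e-06), and none of its exon bases is shared with a gene on the opposite strand.

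A second antisense RNA of the same host, BCAN-AS2, also rose. It starts beyond the far end of BCAN and runs back into it, from 156646507 to 156661424 on the minus strand, and 46.7% of its exon bases are also exon bases of BCAN on the other strand. BCAN-AS2 had 17.3, 13.0 and 14.7 CPM after knockdown, against 4.64, 3.19 and 4.53 CPM in controls, with no overlap, and a log2 fold change of 1.86 (SE 0.22, edgeR adjusted p = 3.65e-05). BCAN itself was scarce, at 1.15, 1.23 and 1.77 CPM after knockdown and 0.394, 0.603 and 0.537 CPM in controls. Those levels did not overlap, but the change of BCAN did not pass the test (log2 fold change 1.43, SE 0.51, adjusted p = 0.0794). Per length, over all libraries, BCAN-AS2 stood at 12.6, BCAN-AS1 at 1.56 and BCAN at 0.199 CPM per kilobase.

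**Figure D2:**
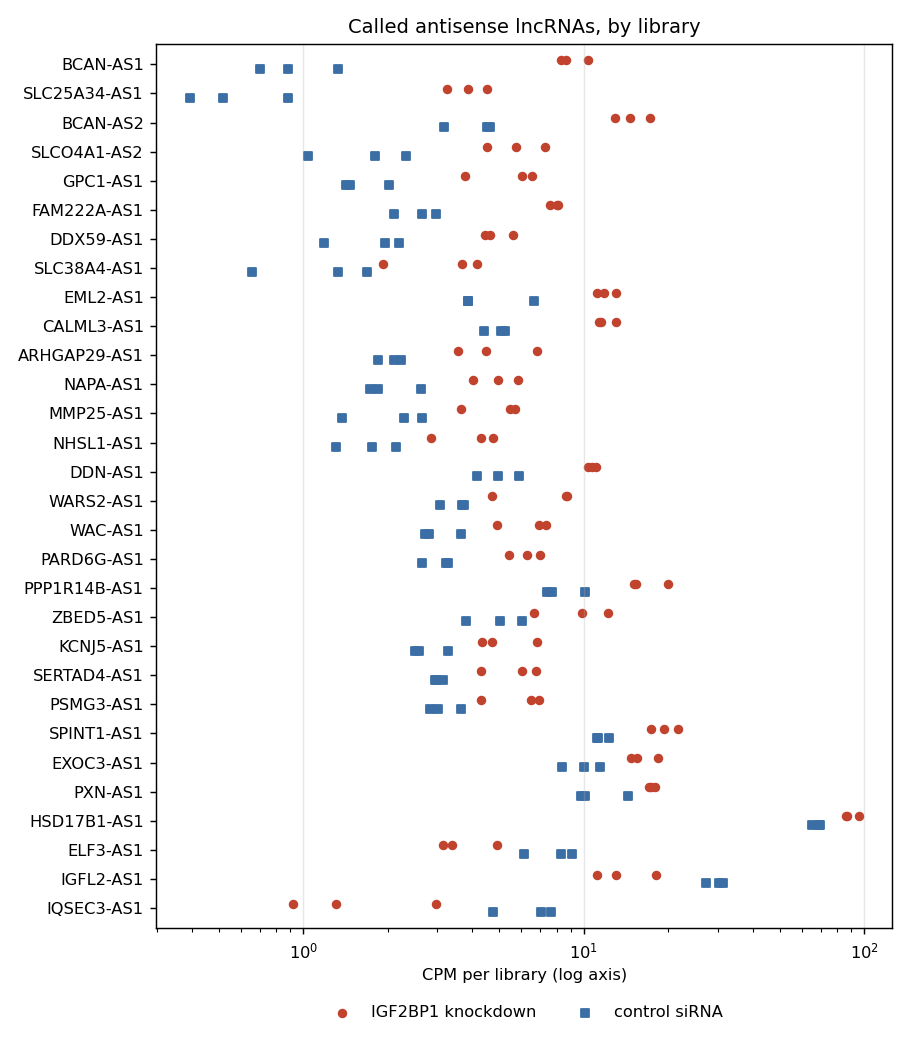
CPM (log axis) of the 30 called antisense lncRNAs in each knockdown library (red circles) and each control library (blue squares), ordered by log2 fold change from the largest rise to the largest fall. BCAN-AS1 at the top has 8.29 to 10.4 CPM after knockdown and 0.701 to 1.34 CPM in controls, and the 3 RNAs at the bottom have their knockdown points to the left.

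SLC25A34-AS1 was scarce in controls. It had 3.24, 4.51 and 3.88 CPM after knockdown, against 0.394, 0.517 and 0.883 CPM in controls, a log2 fold change of 2.68 (SE 0.40, edgeR adjusted p = 2.71e-04). The groups did not overlap. Its host SLC25A34, a member of the mitochondrial carrier family, had 1.87, 1.23 and 1.23 CPM after knockdown and 1.88, 1.81 and 0.806 CPM in controls, which overlap. The antisense gene shares 26.9% of its exon bases with the host's.

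SLCO4A1-AS2 and GPC1-AS1 both lie inside a well expressed host, without shared exon bases. SLCO4A1-AS2 had 5.72, 4.51 and 7.29 CPM after knockdown, against 1.80, 2.33 and 1.04 CPM in controls, and rose by 1.77 on the log2 scale (SE 0.34, edgeR adjusted p = 0.00211). Its host SLCO4A1, an organic anion transporter, had 257, 195 and 224 CPM after knockdown and 253, 228 and 238 CPM in controls, so that the host's groups overlapped while those of the antisense RNA did not.

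GPC1-AS1 moved against its host. It lies on chromosome 2 from 240449315 to 240456714 on the minus strand and had 6.05, 3.76 and 6.53 CPM after knockdown, against 2.02, 1.46 and 1.42 CPM in controls, a log2 fold change of 1.74 (SE 0.32, edgeR adjusted p = 0.00165). GPC1 encodes glypican 1, a heparan sulfate proteoglycan of the cell surface. GPC1 had 499, 454 and 462 CPM after knockdown, against 1000.4, 925 and 948 CPM in controls, a log2 fold change of −1.02 (SE 0.10, edgeR adjusted p = 3.44e-06). Neither gene's groups overlapped.

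PARD6G-AS1 was the other RNA that rose while its host fell. PARD6G encodes a protein of the PAR6 cell polarity family. PARD6G-AS1 starts beyond the far end of PARD6G, shares no exon base with it, and had 6.98, 6.26 and 5.41 CPM after knockdown, against 3.29, 3.23 and 2.65 CPM in controls, a log2 fold change of 1.02 (SE 0.26, edgeR adjusted p = 0.0150). PARD6G had 11.8, 11.5 and 11.0 CPM after knockdown, against 19.8, 13.1 and 20.3 CPM in controls, a log2 fold change of −0.64 (SE 0.19, edgeR adjusted p = 0.0385). Its groups did not overlap, with control library 2 nearest to the knockdown libraries. The fall of PARD6G passed the test only with all libraries or without control library 2 among the fits that left out 1 library, and it did not pass without a scaling factor or with limma-voom, and the rise of PARD6G-AS1 did not pass without control library 2 (adjusted p = 0.0523) or 3 (0.0685) or knockdown library 1 (0.0572). No fit that left out 1 library thus called both genes of the PARD6G pair. Both calls of the GPC1 pair passed in every alternative fit in which they were tested.

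In 3 pairs the antisense RNA and the host were called in the same direction. CALML3-AS1 had 13.1, 11.3 and 11.5 CPM after knockdown, against 5.26, 4.39 and 5.07 CPM in controls (log2 fold change 1.28, SE 0.21, edgeR adjusted p = 5.93e-04). CALML3, a calmodulin-like protein of epithelial cells, had 179, 157 and 171 CPM after knockdown, against 107, 90.0 and 91.9 CPM in controls (log2 fold change 0.81, SE 0.11, edgeR adjusted p = 1.01e-04). No library of either gene crossed into the other group's range. The starts of the 2 genes are 2237 bases apart, head to head and overlapping, and 4.75% of the exon bases of CALML3-AS1 are shared.

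NAPA-AS1 had 4.95, 4.03 and 5.84 CPM after knockdown, against 2.63, 1.85 and 1.73 CPM in controls (log2 fold change 1.26, SE 0.31, edgeR adjusted p = 0.0113). NAPA, which encodes the SNARE-complex disassembly factor alpha-SNAP, had 124, 118 and 141 CPM after knockdown, against 106, 94.5 and 101 CPM in controls (log2 fold change 0.35, SE 0.11, edgeR adjusted p = 0.0436). Of the exon bases of NAPA-AS1, 52.2% are shared with NAPA, and the strand setting of the counting is not given in the sources used here, so reads of this pair cannot be assigned with certainty. The call of NAPA was lost with RLE scaling (adjusted p = 0.0681), DESeq2 (0.0514) and limma-voom (0.0514), and without control library 1, 2 or 3 or knockdown library 3. That of NAPA-AS1 was lost without control library 2 or 3 or knockdown library 3.

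ELF3-AS1 and ELF3 fell together. ELF3 encodes an epithelial transcription factor of the ETS family and had 63.6, 54.6 and 61.0 CPM after knockdown, against 195, 191 and 195 CPM in controls (log2 fold change −1.70, SE 0.11, edgeR adjusted p = 3.55e-08). ELF3-AS1 had 4.89, 3.15 and 3.38 CPM after knockdown, against 8.28, 9.09 and 6.10 CPM in controls (log2 fold change −1.04, SE 0.27, edgeR adjusted p = 0.0148). Both genes had every knockdown library below every control library, and the call of ELF3-AS1 was lost without control library 2 or knockdown library 3. Of the exon bases of ELF3-AS1, 11.9% are shared with ELF3.

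**Figure D3:**
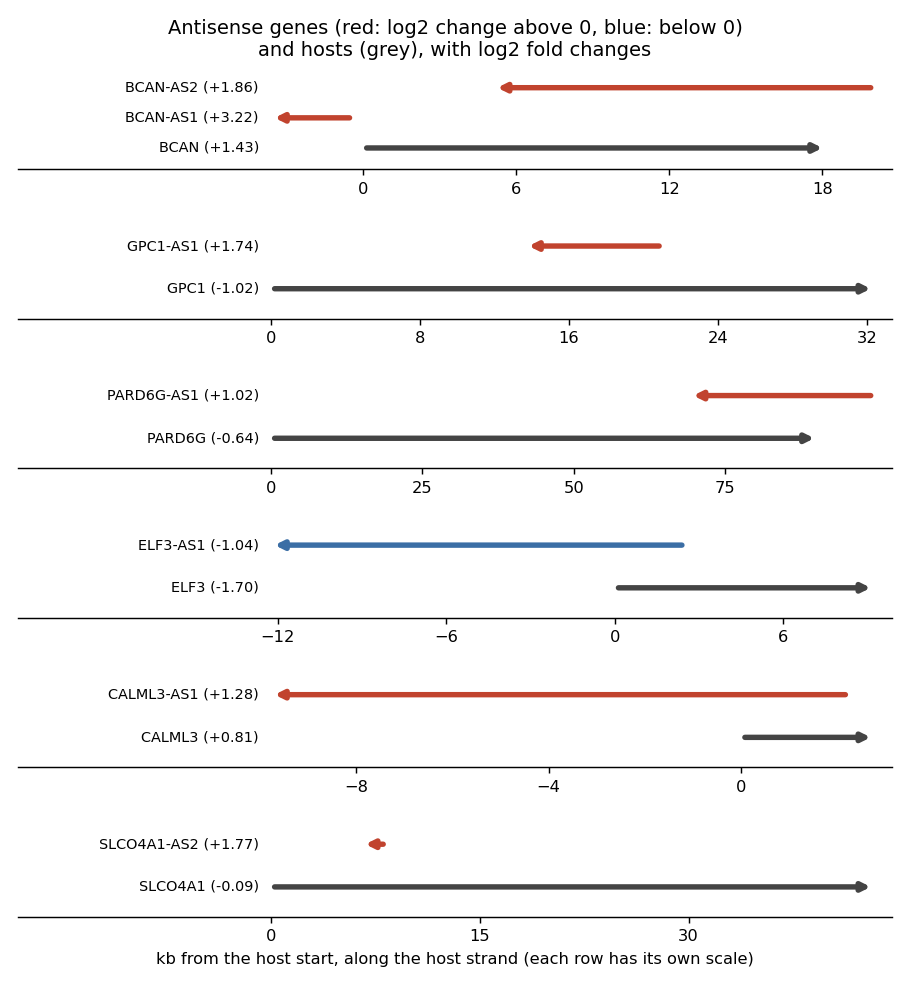
Position of 7 antisense genes (red where the log2 fold change is above 0, blue where below) relative to the start of their 6 hosts (dark grey), in kilobases along the host's strand, each locus on its own scale and with the log2 fold change beside each name. Arrows point in the direction of transcription; BCAN-AS1 starts 0.386 kilobases upstream of BCAN, and GPC1-AS1 and SLCO4A1-AS2 lie wholly inside their hosts.

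The RefSeq promoter windows of some of these genes are shown because they show how antisense RNA and host can share, or not share, a start region. Each window runs from 250 bases before to 50 bases after the annotated start, on GRCh38.p14, and capitals mark bases that also lie in the host's window. The first 4 are the called members whose window shares bases with that of the host, and the last 2 share none.
ELF3-AS1: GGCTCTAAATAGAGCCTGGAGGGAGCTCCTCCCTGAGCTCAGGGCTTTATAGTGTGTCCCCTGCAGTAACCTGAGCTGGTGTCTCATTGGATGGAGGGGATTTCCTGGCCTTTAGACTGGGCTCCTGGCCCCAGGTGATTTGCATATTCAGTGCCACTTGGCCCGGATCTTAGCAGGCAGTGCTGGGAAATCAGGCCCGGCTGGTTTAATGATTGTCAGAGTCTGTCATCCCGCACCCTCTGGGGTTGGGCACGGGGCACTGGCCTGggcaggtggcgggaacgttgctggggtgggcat
ARHGAP29-AS1: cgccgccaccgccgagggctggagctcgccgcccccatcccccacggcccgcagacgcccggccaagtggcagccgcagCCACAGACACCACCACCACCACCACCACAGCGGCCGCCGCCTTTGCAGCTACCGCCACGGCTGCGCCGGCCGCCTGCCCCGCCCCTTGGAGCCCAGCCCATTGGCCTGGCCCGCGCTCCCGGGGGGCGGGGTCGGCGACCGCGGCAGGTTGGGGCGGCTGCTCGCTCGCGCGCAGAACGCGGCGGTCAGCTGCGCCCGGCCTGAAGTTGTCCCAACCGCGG
ZBED5-AS1: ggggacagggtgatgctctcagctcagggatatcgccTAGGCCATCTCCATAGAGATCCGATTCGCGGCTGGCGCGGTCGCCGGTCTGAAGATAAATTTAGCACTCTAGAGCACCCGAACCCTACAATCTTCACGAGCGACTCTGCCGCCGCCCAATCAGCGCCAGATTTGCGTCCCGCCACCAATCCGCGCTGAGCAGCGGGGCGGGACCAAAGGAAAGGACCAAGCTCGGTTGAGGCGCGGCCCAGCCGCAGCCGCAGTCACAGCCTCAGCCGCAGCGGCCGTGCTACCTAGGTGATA
WAC-AS1: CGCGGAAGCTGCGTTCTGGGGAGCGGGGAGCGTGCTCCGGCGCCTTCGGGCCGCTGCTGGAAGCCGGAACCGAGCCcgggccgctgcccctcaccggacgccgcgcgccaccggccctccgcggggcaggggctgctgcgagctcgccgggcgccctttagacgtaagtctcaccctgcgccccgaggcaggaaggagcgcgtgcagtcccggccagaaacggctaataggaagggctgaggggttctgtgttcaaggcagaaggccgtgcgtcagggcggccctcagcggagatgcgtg
GPC1-AS1: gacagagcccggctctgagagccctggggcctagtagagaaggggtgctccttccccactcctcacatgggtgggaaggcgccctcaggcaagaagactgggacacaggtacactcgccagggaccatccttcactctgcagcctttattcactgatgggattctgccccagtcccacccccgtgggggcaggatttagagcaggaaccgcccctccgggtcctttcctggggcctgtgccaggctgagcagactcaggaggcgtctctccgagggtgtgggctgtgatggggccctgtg
SLC25A34-AS1: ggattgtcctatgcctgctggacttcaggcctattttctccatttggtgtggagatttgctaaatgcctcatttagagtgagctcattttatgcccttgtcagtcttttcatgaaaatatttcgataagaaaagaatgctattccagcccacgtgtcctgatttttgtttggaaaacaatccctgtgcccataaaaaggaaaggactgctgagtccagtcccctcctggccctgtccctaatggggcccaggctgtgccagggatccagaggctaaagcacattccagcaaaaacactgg

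The window of ELF3-AS1 is chr1:202010304-202010603 on the minus strand. In RefSeq its start lies 234 bases upstream of that of ELF3, while in GENCODE 29 the start lies 2518 bases inside the host, and 267 of the 300 bases are common to both windows. The other shared windows are those of ARHGAP29-AS1 (chr1:94247618-94247917, plus strand, 221 shared bases), ZBED5-AS1 (chr11:10857967-10858266, plus strand, 263 shared bases) and WAC-AS1 (chr10:28532305-28532604, minus strand, 76 shared bases). ZBED5 is a protein derived from a transposase, and WAC an adaptor protein of histone ubiquitination. GPC1-AS1 (chr2:240456651-240456950, minus strand) and SLC25A34-AS1 (chr1:15749841-15750140, minus strand) start 21037 and 13632 bases downstream of their hosts' starts.

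The 3 rising RNAs with a shared window had hosts that were not called. ARHGAP29-AS1 had 3.57, 6.83 and 4.49 CPM after knockdown, against 1.84, 2.24 and 2.11 CPM in controls, a log2 fold change of 1.27 (edgeR adjusted p = 0.0131), while ARHGAP29 had 4.78, 11.2 and 5.72 CPM after knockdown and 2.41, 6.42 and 4.34 CPM in controls. ZBED5-AS1 had a log2 fold change of 0.95 (edgeR adjusted p = 0.0242) and ZBED5 one of 1.28 (adjusted p = 0.144). WAC-AS1 had a log2 fold change of 1.05 (edgeR adjusted p = 0.0164) and WAC one of 0.69 (adjusted p = 0.0934). The call of ARHGAP29-AS1 was lost without control library 1 or knockdown library 2, that of ZBED5-AS1 without control library 1 or 2 or knockdown library 2 or 3, and that of WAC-AS1 without control library 1 or 3 or knockdown library 1. In each of these 3 pairs the host's fold change had the same sign as that of its antisense RNA.

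The sequences differ in composition. The windows of ARHGAP29-AS1, WAC-AS1 and ZBED5-AS1 hold 40, 37 and 28 CpG dinucleotides, and those of ELF3-AS1, GPC1-AS1 and SLC25A34-AS1 hold 6, 8 and 2. Searched on both strands, with none of the 3 motifs contained in another, ELF3-AS1 has 1 TATAAA and 1 CCAAT, ARHGAP29-AS1 has 4 GGGCGG and 1 CCAAT, ZBED5-AS1 has 2 of each of these, and GPC1-AS1 and WAC-AS1 have 1 GGGCGG each. Of all 27305 windows, 12.0% hold TATAAA, 35.7% CCAAT and 44.6% GGGCGG. Of the 143 members with a window, 2.1% hold TATAAA, 30.8% CCAAT and 61.5% GGGCGG. A window was available for both genes in 126 pairs. Of these, 25 shared bases (3 rises, 1 fall) and 101 did not (14 rises, 1 fall). Over all tested genes 6.27% rose and 6.66% fell.

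Besides ELF3-AS1, IQSEC3-AS1 and IGFL2-AS1 fell. IQSEC3-AS1 had 2.97, 1.31 and 0.921 CPM after knockdown, against 7.67, 7.02 and 4.76 CPM in controls, a log2 fold change of −1.93 (SE 0.38, edgeR adjusted p = 0.00300). IQSEC3, an exchange factor for ARF GTPases, had only 56 reads in all libraries together and was not tested. IGFL2-AS1 had 11.2, 13.0 and 18.2 CPM after knockdown, against 27.3, 31.4 and 30.3 CPM in controls, a log2 fold change of −1.07 (SE 0.18, edgeR adjusted p = 7.94e-04). IGFL2, of the insulin growth factor-like family, had no read in any library, so the fall of IGFL2-AS1 has no host level to stand beside. Neither RNA shares exon bases with an opposite-strand gene, and both had all knockdown libraries below all controls.

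The remaining rises were spread over hosts of many kinds. FAM222A-AS1 had 8.08, 7.57 and 8.02 CPM after knockdown, against 2.1, 2.97 and 2.65 CPM in controls (log2 fold change 1.61, edgeR adjusted p = 4.45e-04), and shares no exon base with an opposite-strand gene. DDX59-AS1, named for an RNA helicase, had 5.61, 4.64 and 4.45 CPM after knockdown, against 1.18, 2.20 and 1.96 CPM in controls (log2 fold change 1.45, edgeR adjusted p = 0.00575). SLC38A4-AS1 and KCNJ5-AS1 have hosts that were barely detected, with 5 and 2 reads in all, an amino acid transporter and a potassium channel. SLC38A4-AS1 had a log2 fold change of 1.40 (edgeR adjusted p = 0.0344) and KCNJ5-AS1 one of 0.93 (edgeR adjusted p = 0.0435). The call of SLC38A4-AS1 was lost without control library 1 or 2 or knockdown library 2 or 3, and that of KCNJ5-AS1 on leaving out any 1 library but knockdown library 2.

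Among the rises, EML2-AS1 and HSD17B1-AS1 lie mostly across exons of their host. EML2-AS1 shares 95% of its exon bases with EML2, a microtubule-associated protein, and had 11.8, 13.1 and 11.1 CPM after knockdown, against 3.86, 6.63 and 3.88 CPM in controls (log2 fold change 1.33, SE 0.24, edgeR adjusted p = 0.00164). EML2 had 69.1, 55.7 and 66.4 CPM after knockdown and 57.8, 64.0 and 52.5 CPM in controls, which overlap. HSD17B1-AS1 shares 85.2% of its exon bases with HSD17B1, an enzyme of oestradiol synthesis, and averaged 89.6 ± 5.41 CPM after knockdown and 67.8 ± 2.19 CPM in controls (SD, n = 3 each; log2 fold change 0.40, edgeR adjusted p = 0.0199). HSD17B1 had 45.1, 55.1 and 42.7 CPM after knockdown and 55.7, 54.5 and 53.0 CPM in controls. The call of HSD17B1-AS1 was lost without control library 1, 2 or 3 or knockdown library 3. The host levels overlapped in both pairs, but the assignment of reads to a strand in these pairs is uncertain.

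Of the other rises, DDN-AS1, PPP1R14B-AS1 and SPINT1-AS1 passed at the smallest p. DDN-AS1 had 10.7, 10.4 and 11.0 CPM after knockdown, against 5.87, 4.18 and 4.95 CPM in controls (log2 fold change 1.1, edgeR adjusted p = 0.00309), and its host encodes dendrin, a cytoskeletal protein. PPP1R14B-AS1 had 15.1, 20.04 and 15.4 CPM after knockdown, against 10.1, 7.71 and 7.41 CPM in controls (log2 fold change 1.00, edgeR adjusted p = 0.00292), and its host is an inhibitory subunit of protein phosphatase 1. SPINT1-AS1 had 17.4, 21.7 and 19.3 CPM after knockdown, against 11.2, 11.1 and 12.3 CPM in controls (log2 fold change 0.75, edgeR adjusted p = 0.00683), and its host is a Kunitz-type inhibitor of serine proteases. In all 3 RNAs the groups were apart, and none of these hosts was called. Some opposite-strand gene shares 61.1% of the exon bases of PPP1R14B-AS1, 48.8% of those of DDN-AS1 and 8.07% of those of SPINT1-AS1. With the named host alone, PPP1R14B-AS1 shares 6.03% and DDN-AS1 13.4%. The assignment of reads to a strand is thus uncertain here too.

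The other 7 rises had edgeR adjusted p-values between 0.0184 and 0.0438. They were MMP25-AS1 (log2 fold change 1.22), NHSL1-AS1 (1.20), WARS2-AS1 (1.06), SERTAD4-AS1 (0.92), PSMG3-AS1 (0.89), EXOC3-AS1 (0.71) and PXN-AS1 (0.61). Their hosts include MMP25, a membrane-type metalloproteinase, WARS2, the mitochondrial tryptophanyl-tRNA synthetase, PSMG3, a proteasome assembly chaperone, EXOC3, an exocyst subunit, and PXN, the focal adhesion protein paxillin. None of these hosts was called, and each of the 7 rises was lost in 3 or more of the 6 fits that left out 1 library. PXN-AS1 had 17.4, 17.9 and 17.2 CPM after knockdown, against 14.4, 9.82 and 10.1 CPM in controls, so that control library 1 came nearest to the knockdown libraries.

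Among the 163 members that were not called, 42 had groups that did not overlap, 31 with higher (19.02%) and 11 with lower (6.75%) knockdown levels. Over the 12756 genes not called, 10.7% did not overlap with higher and 9.81% with lower knockdown levels. CBLL1-AS1 had the largest difference upwards, with 3.96, 4.59 and 2.84 CPM after knockdown and 2.41, 2.63 and 0.844 CPM in controls (log2 fold change 0.96, edgeR adjusted p = 0.130). IER5L-AS1 had a log2 fold change of −0.88 (edgeR adjusted p = 0.0670) and UBAC2-AS1 one of −0.83 (edgeR adjusted p = 0.0998).

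The hosts moved in both directions. Of the 171 tested hosts, 16 rose (9.36%), 18 fell (10.5%) and 137 were not called, with a median log2 fold change of 0.06. Over all genes 12.9% were called either way, and over protein-coding genes 13.9%. The hosts' median level was 44.1 CPM, against 6.95 CPM over all genes, so these shares are not matched in level. Of the 75 hosts in level quintile 5, 10.7% rose and 16% fell, where 9.35% of all genes rose and 15.8% fell. Of the 30 hosts in quintile 4, 16.7% rose and 20% fell, where 8.87% of all genes rose and 11.2% fell. In quintiles 1 to 3, 0, 1 and 2 hosts rose and none fell. No difference between hosts and all genes was tested. Without a scaling factor 30 hosts rose and 14 fell, and without control library 2, 9 rose and 14 fell. The members' split stayed one-sided in the same fits, with 35 rises and 3 falls without a scaling factor.

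The hosts with the largest changes whose antisense RNA was not called were of many functions. LBX2, a homeobox gene, had 9.46, 10.1 and 8.10 CPM after knockdown, against 4.08, 3.06 and 3.42 CPM in controls (log2 fold change 1.39, edgeR adjusted p = 9.00e-04), and LBX2-AS1 one of 0.72 (adjusted p = 0.0667). NUCB1, a calcium-binding nucleobindin, had 84.5, 70.7 and 90.9 CPM after knockdown, against 204, 186 and 191 CPM in controls (log2 fold change −1.24, edgeR adjusted p = 2.36e-06), and NUCB1-AS1 one of −0.76 (adjusted p = 0.198). NRSN2, a membrane protein of vesicles, had 142, 124 and 132 CPM after knockdown, against 61.8, 60.6 and 65.0 CPM in controls (log2 fold change 1.09, edgeR adjusted p = 4.22e-06), and NRSN2-AS1 one of 0.46 (adjusted p = 0.479). In each of these 3 pairs the fold changes of antisense RNA and host had the same sign.

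IER5L fell (log2 fold change −1.08, edgeR adjusted p = 1.15e-05), as did the T-box factor TBX2 (−0.93, adjusted p = 0.00203), the lactate transporter SLC16A1 (−0.92, adjusted p = 0.00662) and ARHGEF4 (−0.74, adjusted p = 0.00262). LOXL1, a lysyl oxidase-like enzyme of the matrix, rose (1.18, adjusted p = 0.0355), as did VPS9D1 (0.95, adjusted p = 0.00761) and the dehydrogenase DHRS4 (0.84, adjusted p = 2.02e-04). The call of LOXL1 was lost without control library 2 or 3 or knockdown library 2 or 3, and that of SLC16A1 without control library 2. Their antisense RNAs had log2 fold changes of −0.88 (IER5L-AS1), −0.52 (TBX2-AS1), 0.27 (SLC16A1-AS1), 0.46 (ARHGEF4-AS1), 0.74 (LOXL1-AS1), 0.09 (VPS9D1-AS1) and −0.09 (DHRS4-AS1). Of these 7 RNAs, 3 thus had a sign opposite to the host's.

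Across the 173 pairs in which both genes were tested, which hold 171 hosts, 78 pairs had both fold changes above 0 and 30 had both below 0. In 48 pairs the antisense RNA was above 0 and the host below, and in 17 the reverse held. Pearson's r between the 2 fold changes was 0.32 and Spearman's rank correlation 0.28; these are across genes, which are not independent replicates, and both genes of a pair come from the same 6 libraries and often share exon bases. Of the 173 pairs, 118 had neither gene called, 21 had a rising antisense RNA with a host not called, 29 had a called host with an antisense RNA not called, 3 had both called in the same direction and 2 in opposite directions. The same-direction count was 1 without control library 2 or without knockdown library 3 and 5 without knockdown library 2, it was 2 with RLE scaling, and the opposite-direction count was 1 on leaving out any of the 6 libraries.

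**Figure D4:**
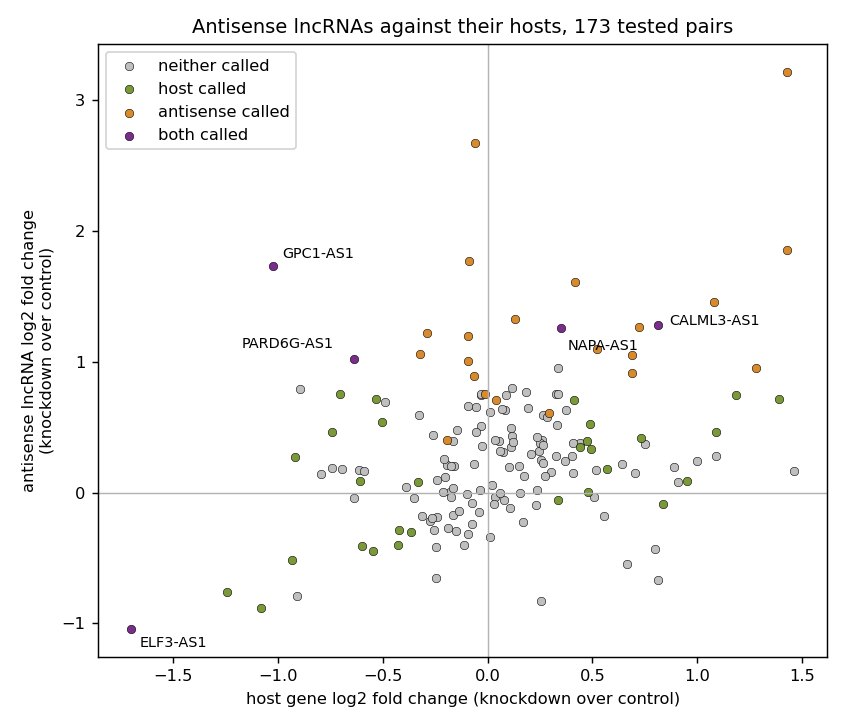
Log2 fold change (knockdown over control) of 173 antisense lncRNAs against that of their host, coloured by which of the 2 genes was called, with the 5 pairs in which both were called named. GPC1-AS1 and PARD6G-AS1 lie in the upper left, CALML3-AS1 and NAPA-AS1 in the upper right and ELF3-AS1 in the lower left.

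The change of an antisense RNA relative to its host was tested directly, as the log2 antisense CPM minus the log2 host CPM in each library, over all 428 named pairs with both genes tested. In 1 of the 173 member pairs, that of GPC1, the ratio was higher after knockdown at a limma adjusted p under 0.05, and in none was it lower; over all 428 pairs, members included, the shares were 0.467% and 0%. At an unadjusted limma p under 0.05 there were 34 of the 173 member pairs, in either direction. The share of all 428 pairs at that level was not counted, so the 34 are not a result about the members. At an adjusted p under 0.05, the count of member pairs was 1 without knockdown library 2, 0 on leaving out any of the other 5 libraries and 21 under a stricter count filter. A fit that lets the variance follow the abundance of the antisense RNA, chosen after the data and a simulation were seen, called 15 member pairs higher and 2 lower, beside 4.44% and 0.467% over all 428 pairs. The pairs described next are those of that second fit, and both adjusted p-values are given.

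GPC1 gave the largest difference. The log2 ratio of GPC1-AS1 to GPC1 was −6.35, −6.88 and −6.13 after knockdown, against −8.89, −9.22 and −9.30 in controls, a difference of 2.69 (SE 0.33, limma adjusted p = 0.0162, and 1.84e-04 with the abundance trend). That of SLC25A34-AS1 to SLC25A34 was 0.77, 1.81 and 1.59 after knockdown, against −2.04, −1.65 and 0.12 in controls, a difference of 2.58 (SE 0.59, limma adjusted p = 0.104, and 0.00781 with the trend). That of BCAN-AS1 to BCAN was 2.81, 3.00 and 2.18 after knockdown, against 0.71, 1.04 and 0.64 in controls, a difference of 1.86 (SE 0.33, limma adjusted p = 0.0594, and 0.00604 with the trend). The groups were apart in all 3 pairs, and the ratio of the SLC25A34 pair was above 0 in all 3 knockdown libraries and below 0 in 2 of 3 control libraries.

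SLCO4A1-AS2 (difference of ratio 1.85, limma adjusted p = 0.0785, and 0.00781 with the trend), TGFB2-AS1 (1.63, adjusted p = 0.151, and 0.0342) and PARD6G-AS1 (1.61, adjusted p = 0.0785, and 0.00781) came next. TGFB2 encodes transforming growth factor beta 2. TGFB2-AS1 was at 2.09, 3.32 and 3.03 CPM after knockdown and 1.58, 1.81 and 1.5 CPM in controls, and TGFB2 was at 2.75, 3.89 and 1.57 CPM after knockdown and 3.64, 4.31 and 7.25 CPM in controls. Neither gene was called alone, and the levels of TGFB2 overlapped while those of TGFB2-AS1 did not. For SLC25A25, SLC16A1, ARHGEF4 and PITX1 the host fell and the antisense RNA was not called, and the ratio differed by 1.46, 1.18, 1.20 and 1.20 on the log2 scale, with limma adjusted p-values of 0.0785 to 0.171 and of 0.00821 to 0.0478 with the trend. SLC25A25 encodes a mitochondrial carrier, SLC16A1 a monocarboxylate transporter and PITX1 a homeobox factor.

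The ratios of VPS9D1-AS1 and TSPOAP1-AS1 lay below those of controls. The log2 ratio of VPS9D1-AS1 to VPS9D1 was 2.52, 2.32 and 2.06 after knockdown, against 3.37, 3.35 and 2.82 in controls, a difference of −0.88 (SE 0.31, limma adjusted p = 0.219, and 0.00821 with the trend). VPS9D1-AS1 itself had 78.4, 56.7 and 60.2 CPM after knockdown and 67.4, 56.5 and 59.8 CPM in controls, which overlap, while VPS9D1 rose. The log2 ratio of TSPOAP1-AS1 to TSPOAP1 was −2.09, −1.08 and −0.79 after knockdown, against 0.20, −0.07 and 0.26 in controls, a difference of −1.45 (SE 0.40, limma adjusted p = 0.140, and 0.0381 with the trend). In that pair neither gene was called alone.

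**Figure D5:**
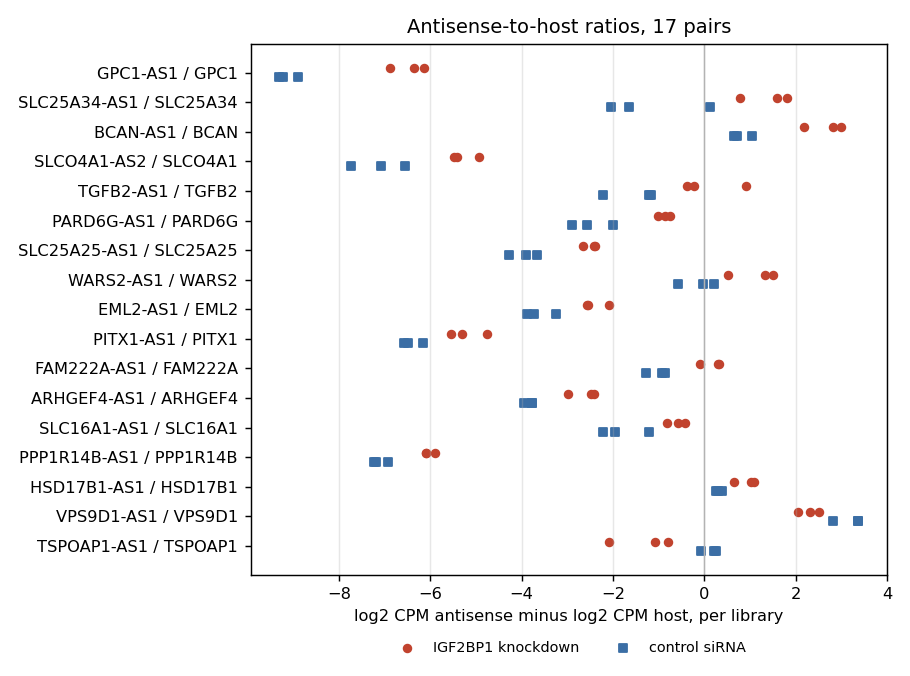
Log2 antisense CPM minus log2 host CPM in each knockdown library (red circles) and each control library (blue squares) for the 17 pairs that passed limma with an abundance trend, from the largest positive difference at the top to the 2 negative ones at the bottom. The ratio of GPC1-AS1 to GPC1 lies between −6.88 and −6.13 after knockdown and between −9.30 and −8.89 in controls, and it alone passed without the trend.

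The arrangement of the 2 genes was read from GENCODE 29. Among 87 members that start head to head with their host and overlap it, 14 rose and 1 fell, with a median log2 fold change of 0.36, and among 10 that are head to head without overlap 1 rose. Among 44 that overlap tail to tail, 6 rose and 1 fell (median 0.28), among 32 inside the host 5 rose (median 0.19), and among 16 that contain the host 1 rose (median 0.17). The medians of all these groups were above that of all genes. For 61 members whose start is within 1000 bases of the host's start, 11 rose and none fell (median 0.35), and for the 129 others with a known distance 16 rose and 3 fell (median 0.23). FAM131B-AS2 lies on the strand of its named host in that release, and was not called. Beside these counts, 6.27% of all tested genes rose and 6.66% fell, and 14.0% and 1.55% of all 193 members. No difference between arrangements was tested.

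Exons that face exons on the other strand could exchange reads in the counting, which was not tested. Of the 30 members that share no exon base with any opposite-strand gene, 8 rose and 2 fell, with a median log2 fold change of 0.28, and of the 163 that share some, 19 rose and 1 fell, with a median of 0.27. Of the 24 with over 50% of their exon bases shared, 4 rose. The share that rose was higher among the 30 than among the 163, a difference that was not tested. Over all tested genes 6.27% rose and 6.66% fell. GPC1-AS1, SLCO4A1-AS2, BCAN-AS1, FAM222A-AS1 and PARD6G-AS1 are among the rises with none shared, and IQSEC3-AS1 and IGFL2-AS1 are the 2 falls with none shared.

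No gene rose among the factors that remove or end non-coding transcripts in the nucleus (0% in each list, beside 6.27% over all genes). None was higher at an unadjusted edgeR p under 0.05, and none was called higher in any alternative fit, DESeq2 included. Of 27 genes of nuclear RNA decay, which include the exosome, its nuclear cofactors and the cap-binding adaptors, 1 fell (3.70%, beside 6.66% over all genes), EXOSC7, a ring subunit of the exosome (log2 fold change −0.41, edgeR adjusted p = 0.0447), and their median was −0.10. Of 26 tested genes of transcription termination, 4 fell (15.4%, beside 6.66% over all genes), with a median of −0.07. The 4 were the Integrator subunits INTS3 (−0.68, adjusted p = 0.0246) and INTS11 (−0.39, adjusted p = 0.0229), the termination factor PCF11 (−0.59, adjusted p = 0.0436) and the cleavage stimulation factor CSTF2 (−0.59, adjusted p = 0.0331). INTS11, the catalytic subunit of Integrator, had 192, 159 and 196 CPM after knockdown, against 249, 230 and 237 CPM in controls. The share of genes that fell also varied with level. By mean CPM, INTS11 lies in quintile 5, where 15.8% of all genes fell. INTS3 and CSTF2 lie in quintile 4, where 11.2% fell, and PCF11 lies in quintile 3, where 4.10% fell. The call of EXOSC7 was lost without a scaling factor, under the stricter filter, with limma-voom and without control library 2 or knockdown library 1 or 3. Without a scaling factor 2 termination genes fell, PCF11 and CSTF2 losing their calls, and leaving out 1 library gave 1 to 5 falls, with 1 without control library 2 or knockdown library 2 or 3. The call of INTS11 was lost only without control library 1. INTS3 lost its call without control library 1 or 2 or knockdown library 2 or 3. Its groups overlapped, with 22.9 CPM in knockdown library 1 and 22.8 CPM in control library 3. The nuclear lncRNAs MALAT1 and NEAT1 were not called. Whether any of these changes bears on the antisense RNAs was not tested.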

How the data were processed

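The members, hosts and gene lists were chosen with earlier results of these data known. The deposited values are raw read counts per gene, which the authors made, per the submitters' processing notes, with cutadapt 2.8, HISAT2 2.1.0, SAMtools 1.10 and featureCounts 2.0.0 on hg38, from directional dUTP libraries per the labels' protocols. Which annotation was used, whether counting used strand, and how multiply mapping reads were handled is not given in the sources used here, so antisense genes that share exon bases with a host are uncertain. The deposited table also holds a gene length per gene, another value as the authors gave it, used for CPM per kilobase. Names with dots were restored to hyphens by Ensembl identifier for 5521 genes. Columns were matched to samples by library name, and 0 columns were left unused.

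Genes were kept with filterByExpr (minimum count 10, minimum total 15), which left 14649 genes, and edgeR 4.0.16 under R 4.3.3 was used for testing (TMM, robust dispersion, glmQLFit, glmQLFTest, 2 groups, no covariate) with Benjamini-Hochberg adjustment over all of them. Below an adjusted p of 0.05 a gene was called and is said to have risen or fallen. Levels are TMM-scaled CPM, they are given as mean ± SD or per library, and intervals cover 95%. Ratios of antisense to host were tested with limma 3.58.1 (eBayes) on log2 CPM differences with a prior count of 2, over 428 pairs; few pairs changed in simulated data were recovered by it, and a fit with an abundance trend, which recovered more, was added after seeing the data. Coordinates and exon overlaps come from GENCODE 29 on GRCh38, for all 193 members. Promoter windows come from RefSeq (GRCh38.p14), matched by symbol for 143 members. Libraries of 1 group were not copies: over the counts of 2 such libraries, chi-square divided by its degrees of freedom was 14.6 to 36.2. Floors of 3 reads cover counting error only.

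The genes named are IGF2BP1, every called member with its host, the 10 called hosts with the largest change whose member was not called, the 5 members of highest level per length, the 3 largest changes among members not called without overlap, the 3 rows on each side of the threshold, up to 5 pairs per direction in the ratio test (with the abundance trend, a choice made after the values were seen; SLC25A25, SLC16A1, ARHGEF4 and PITX1 were added after their values were seen, for the fall of the host), and up to 2 called genes per direction from each list (INTS11, CSTF2 and the squamous markers are given beyond it to complete a count). Alternatives were scaling by RLE or not at all, leaving out the count filter or tightening it to 5 CPM in 3 libraries, a replicate block, DESeq2 1.42.0, limma-voom, dropping each library, other thresholds (150 and 600 reads) and, after seeing the data, membership by one group's reads, and members without shared exon bases. Only the main edgeR fit and the ratio fits, with and without the trend, were tested on simulated data. The edgeR fit recovered 22.1% of simulated 1.5-fold changes, 49.3% of 2-fold and 84.5% of 4-fold changes. A gene not called may thus have changed by such an amount. Some markers of other cell types were also named beyond the rule above.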

Additional observations from a re-analysis of the deposited data

How the results depend on the processing

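IGF2BP1 lay between −2.86 and −3.35 in all fits. Of the 30 called members, 14 were called in every alternative fit in which they were tested and 16 lost the call in some, 15 of them only when a library was left out and PSMG3-AS1 also with limma-voom; the cause was not tested. Between 16 and 23 of the 30 calls held when 1 library was left out, and all 15 called members tested under the stricter filter kept theirs. Leaving out 1 library gave 15 to 24 rises and 2 to 4 falls among members, 9 to 18 rises and 13 to 20 falls among hosts, 1 to 5 pairs in the same direction, 1 pair in opposite directions, 0 to 1 pairs with a changed ratio, and 1231 to 1948 calls over all genes, the lowest without control library 2. By fewer members alone, a threshold of 600 reads left 17 rises, 9 host rises, 10 host falls, 1 opposite pair and 0 changed ratios, and members without a shared exon base gave 8 rises. Host rises numbered 30 without a scaling factor, 26 under the stricter filter and 26 with the replicate block. Same-direction pairs numbered 8, 7 and 6 in those fits and 5 with DESeq2, and opposite pairs 1 with limma-voom. The ratio test called 1 pair, and it called 17 with the abundance trend, 21 under the stricter filter, 1 with a prior count of 0.5 and 0 with the replicate block; the cause was not tested. Whether replicate numbers pair the libraries was not settled. The correlations of deviations between libraries of the same number were 0.18, 0.09 and −0.07. Knockdown libraries 1, 2 and 3 correlated best with control libraries 1, 3 and 1. The block gave 33 rises and 4 falls among members and 2431 calls over all genes, beside 27, 3 and 1893 without it.

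The named genes whose log2 fold change changed sign in some fit were not called. In the main fit the largest of these changes were those of MMP25 (−0.29), UXT-AS1 (−0.24) and COL4A2-AS1 (0.23). Without a scaling factor the sign changed for SPINT1 (0.071), PSMG3 (0.021), SLC25A34 (0.023) and PHLDA1-AS1 (0.0057). It changed under the stricter filter for SPINT1 (0.024), and with limma-voom for SLC25A34 (0.0068). On leaving out 1 library, SPINT1 ranged from −0.14 to 0.088, EXOC3 from −0.044 to 0.12, MMP25 from −0.96 to 0.094, NHSL1 from −0.29 to 0.067, SLC25A34 from −0.38 to 0.11, VPS9D1-AS1 from −0.071 to 0.14, DHRS4-AS1 from −0.25 to 0.092, PHLDA1-AS1 from −0.33 to 0.069, UXT-AS1 from −0.39 to 0.011 and COL4A2-AS1 from −0.16 to 0.46. Depth limits the low genes most: 3 reads equalled 0.115 to 0.165 CPM.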

Other observations

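The reads per library show how thin some of the calls are. SLC25A34-AS1 had 59, 103 and 101 reads in the knockdown libraries and 9, 12 and 23 reads in the control libraries, and its log2 fold change has a 95% interval of 1.83 to 3.52. GPC1-AS1 had 110, 86 and 170 reads in the knockdown libraries and 46, 34 and 37 in the control libraries, with an interval of 1.06 to 2.42. The GC content of the members' exons correlated with their log2 level (r = 0.45 over 193 genes) and hardly with their log2 fold change (r = 0.05); both are across genes of the same 6 libraries. Among all tested genes the same values were 0.43 and −0.001.

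Among all genes and among members the share that rose varied with GC content. In quintiles 1 to 5 of all genes by GC content, 1 of 9 members (11.1%), 2 of 35 (5.71%), 7 of 51 (13.7%), 13 of 56 (23.2%) and 4 of 42 (9.52%) rose, and of all genes 2.28%, 3.61%, 5.86%, 8.77% and 11.0% rose. The members' share was below that of all genes in quintile 5 and above it in the other 4. These counts were looked up after the results were known and were not tested.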
